A study of Mus musculus with 2 samples.

Results

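This section describes 6 genes of the membrane-spanning 4-domain family, Ms4a4b, Ms4a4c, Ms4a6b, Ms4a6c, Ms4a6d and Ms4a7, and the related Tmem176a and Tmem176b, in dendritic cells of the mouse spleen. They are 8 of the 17751 genes measured, were taken by symbol from the raw gene tables, and all 8 were found. They were chosen on measured values, since Ms4a4c, Tmem176a and Tmem176b were higher in the Batf3-/- than in the WT cells of cluster 6 (C6), so the values of these genes in C6 are a description and carry no test. Transcripts and surface proteins of the same single cells were sequenced from live MHCII+CD11c+ splenocytes, sorted after depletion of T and B cells. The first library came from WT C57BL/6 mice and the second from Batf3-/- mice, which lack the gene in every cell, all of them female and 8 weeks old. By the study's methods, WT mice came from the Animal Resources Centre, and Batf3-/- mice were bought from Jackson Laboratories and bred in house. Genotype and source of the mice therefore cannot be told apart. Each library pooled the spleens of 6 mice and was made once, so that the mice cannot be told apart, every value below compares 1 library with 1 library, and no test between genotypes was possible.

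MS4A proteins cross the membrane several times. The best known is Ms4a1, the CD20 antigen of B cells, and other members act as partners of surface receptors and signalling molecules in myeloid and lymphoid cells. TMEM176A and TMEM176B share this layout, are cation channels of intracellular membranes, and have long been used as marks of immature dendritic cells. Tmem176b is known to restrain the Nlrp3 inflammasome. Batf3 is the AP-1 family transcription factor on which conventional type 1 dendritic cells (cDC1) depend, while type 2 cells (cDC2) form without it.

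The members sit at 2 loci. Ms4a7 (chr19:11321039-11336146, minus strand), Ms4a4c (chr19:11404770-11427246), Ms4a4b (chr19:11443553-11467055), Ms4a6c (chr19:11469366-11482192), Ms4a6b (chr19:11516512-11531256) and Ms4a6d (chr19:11586604-11604849, minus strand) lie in this order within the Ms4a cluster of chromosome 19. Tmem176b (chr6:48833818-48841496, minus strand) and Tmem176a (chr6:48840919-48847071, plus strand) lie head to head and overlap at their 5′ ends (GENCODE vM21, build GRCm38, the build of the files). All 8 are annotated as protein-coding.

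RefSeq promoter windows of 250 bases before to 50 bases after a start site (GRCm38.p6) were at hand for 7 of the 8 genes. The lines that follow print the part from 100 bases before the start site for Ms4a4c, Ms4a6b and Ms4a6c, which were compared between libraries in C6, and for Ms4a4b, the near copy of Ms4a4c, and the whole of the upstream Tmem176a window, all on the plus strand. Capitals mark GGAAGT, the core motif of Ets family factors, on either strand.
Ms4a4b, chr19:11443458-11443607: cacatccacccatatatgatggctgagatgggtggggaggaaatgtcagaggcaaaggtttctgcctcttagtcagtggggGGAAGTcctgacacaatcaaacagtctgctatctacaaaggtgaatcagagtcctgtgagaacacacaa
Ms4a4c, chr19:11407561-11407710: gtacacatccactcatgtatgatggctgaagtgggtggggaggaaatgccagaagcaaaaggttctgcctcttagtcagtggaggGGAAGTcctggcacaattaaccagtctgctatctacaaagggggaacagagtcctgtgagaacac
Ms4a6b, chr19:11518459-11518608: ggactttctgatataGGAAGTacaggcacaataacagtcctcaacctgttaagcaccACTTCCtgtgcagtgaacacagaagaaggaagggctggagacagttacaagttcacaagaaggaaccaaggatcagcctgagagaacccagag
Ms4a6c, chr19:11469268-11469417: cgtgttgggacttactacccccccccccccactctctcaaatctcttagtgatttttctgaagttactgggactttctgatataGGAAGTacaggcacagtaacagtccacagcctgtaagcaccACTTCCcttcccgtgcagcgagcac
Tmem176a, chr6:48841233-48841532: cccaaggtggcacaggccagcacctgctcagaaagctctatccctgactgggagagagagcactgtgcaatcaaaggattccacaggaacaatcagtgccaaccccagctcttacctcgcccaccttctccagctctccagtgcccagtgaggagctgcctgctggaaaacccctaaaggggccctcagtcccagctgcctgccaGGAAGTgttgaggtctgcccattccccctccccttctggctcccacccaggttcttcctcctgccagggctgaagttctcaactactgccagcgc

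The windows show that neighbours on chromosome 19 are near copies. The windows of Ms4a4b and Ms4a4c aligned over 178 columns with 89.3% identity, and those of Ms4a6b and Ms4a6c over 234 columns with 82.5% identity and a longest identical run of 48 bases. The Tmem176a window and the nearest Tmem176b window share 208 bases read in opposite directions, with start sites 109 bases apart. GGAAGT was found on either strand in 8 of the 11 windows of the members and in 23.8% of the 32851 windows of all genes. The member windows are not separate, since the hits in the Tmem176a and Tmem176b windows are the same sites and the Ms4a pairs are near copies, so nothing is read from this contrast. TGANTCA, the AP-1 motif with any base in the middle, was found in 2 of the 11 windows and in 7.81% of all windows. The hits were TGAATCA, 22 bases after the start site of Ms4a4b, and TGATTCA, 81 bases before the inner of the start sites of Ms4a7. The AP-1 consensus has C or G in the middle, which is in neither hit. Neither the interferon-stimulated response element of the IRF family (3.44% of all windows) nor the AP-1 and IRF composite element, which contains TGANTCA (0.119%), was found in a window of a member, on either strand. A match or its absence says only whether those letters stand in these windows.

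The study's 20 clusters, named there from their marker genes, were used as deposited: C4, C6 and C12 are immature, mitotic immature and mature cDC1, C0, C5, C7, C8 and C10 are cDC2a in various states, C2 and C11 are immature and mature cDC2b, C1 is a mature cDC2 state marked by Il4i1, C3 the Sox4+ state, C13 holds NK cells, innate lymphoid cells and T cells, C14 plasmacytoid dendritic cells (pDCs) and C15 monocytes. The tables held 12224 WT cells (median of 8375 UMIs) and 12119 Batf3-/- cells (median of 8516 UMIs). Levels are given as CPM, the unique transcript counts (UMIs) of a gene per 1000000 UMIs of the same cells, with a 95% exact Poisson interval, and ratios as log2 of Batf3-/- over WT CPM with a 95% exact binomial interval. These intervals cover counting error only, not the spread between mice. UMIs are counted at the 3′ end, so no division by transcript length is needed. Batf3 checked the labels, at 206 CPM in WT and 2.49 CPM in Batf3-/- cells. The libraries shared 56 cell barcodes, and without those cells the members' median log2 ratio in C6, given below, was 2.31 as with them.

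In C6 (797 WT and 727 Batf3-/- cells) the interval of the log2 ratio lay above 0 for every member but Ms4a7. Ms4a4c, a member found in myeloid cells and induced by interferon, was at 24.7 CPM (interval 22.3 to 27.3) in WT and 180.5 CPM (173 to 188) in Batf3-/- cells. Its log2 ratio of 2.87 (2.71 to 3.03) was the 8th highest of the 7045 genes compared. Tmem176b was at 34.1 CPM (31.2 to 37.1) and 186 CPM (178 to 193), a log2 ratio of 2.44 (2.31 to 2.58), and Tmem176a at 28.6 CPM (26.1 to 31.4) and 142 CPM (136 to 148), a log2 ratio of 2.31 (2.16 to 2.46). None of these intervals overlapped between the libraries, which is what the genes were chosen for.

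Of the other members, Ms4a6c was the most abundant in C6, at 121 CPM in WT and 438 CPM in Batf3-/- cells, a log2 ratio of 1.85 (1.78 to 1.93). Ms4a6b was at 33.6 and 117 CPM, a log2 ratio of 1.79 (1.65 to 1.94). The remaining 3 members were under the minimum of a mean of 10 CPM that a gene needed to be compared. Ms4a4b, known from T cells, where it affects their proliferation, was at 3.71 CPM (58 UMIs) in WT and 13.9 CPM (187 UMIs) in Batf3-/- cells. Ms4a6d had 3 UMIs in WT and 32 in Batf3-/- cells, a log2 ratio of 3.63 with an interval of 1.95 to 5.98. Ms4a7, known from macrophages and microglia, was at 1.21 CPM (19 UMIs) and 1.63 CPM (22 UMIs), values whose intervals overlapped.

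All 5 members that passed the minimum were at least 2-fold higher in Batf3-/- C6, against 1.97% of the 7045 genes compared (139 genes), and the median log2 ratio was 2.31 for the members and 0.01 for all genes. Nothing is read from that count, since C6 was the contrast that chose the genes. Summed over the 6 Ms4a members, the family was at 185 CPM in WT and 753 CPM in Batf3-/- C6. Ms4a6c gave 65.7% of those family UMIs in WT and 58.2% in Batf3-/- cells, while the share of Ms4a4c was 13.4% in WT and 24.0% in Batf3-/- cells.

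**Figure D1:**
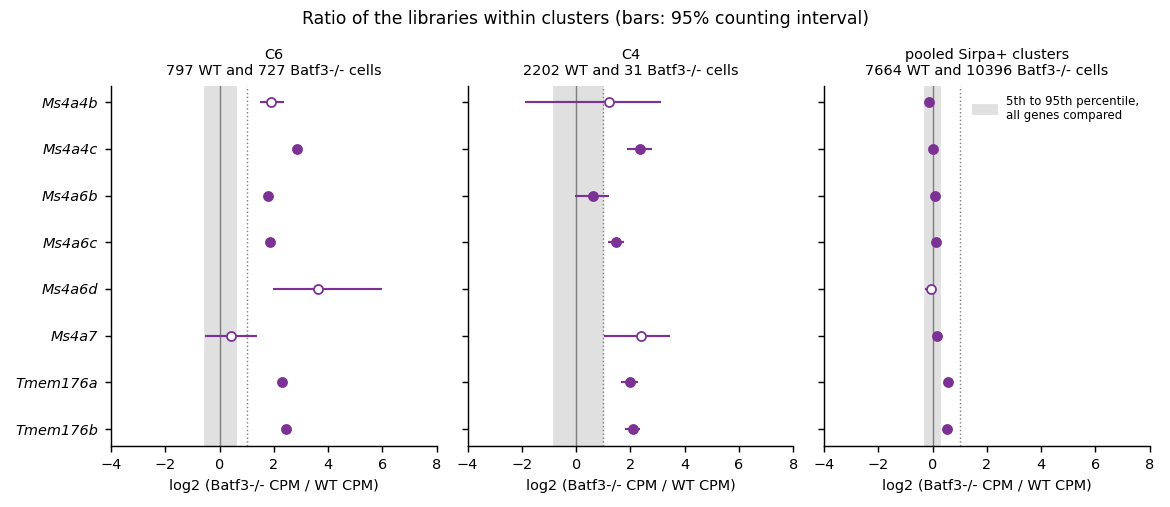
Log2 ratio of Batf3-/- over WT CPM of each gene in C6, C4 and the pooled Sirpa+ clusters, with 95% counting intervals as bars, filled points for genes that passed the minimum of 10 CPM and the grey band for the 5th to 95th percentile of all genes compared (Ms4a6d in C4 had no Batf3-/- UMI and is not drawn). In C6 the points run from 0.43 for Ms4a7 to 3.63 for Ms4a6d, and in the pooled Sirpa+ clusters from -0.14 for Ms4a4b to 0.58 for Tmem176a.

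The shift in C6 was spread over many cells. After thinning every cell to 5000 UMIs (789 WT and 723 Batf3-/- cells were deep enough, 8 and 4 were left out), the share of cells with a UMI of Ms4a4c was 10.4% in WT and 56.4% in Batf3-/- cells. For Tmem176b those shares were 10.9% and 49.1%, for Tmem176a 8.24% and 39.4%, for Ms4a6b 14.2% and 41.2%, and for Ms4a6c 38.3% and 83.4%. The median cell had 0 UMIs of Ms4a6c in WT and 2 in Batf3-/- C6. In cycling cDC2a cells (C5) of the WT library the share with a UMI was 68.6% for Ms4a4c, 83.6% for Ms4a6c and 68.9% for Tmem176b, and in C5 of the Batf3-/- library it was 70.0%, 88.3% and 83.6%. The Batf3-/- C6 shares were lower than those of C5 of the same library for all 3 genes.

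At the lower depth of 1000 UMIs per cell, which nearly all cells reach, 2.13% of WT and 14.3% of Batf3-/- C6 cells had a UMI of Ms4a4c. The corresponding shares in pDCs (C14) were 5.19% and 3.96%, and in C13 they were 9.96% and 20.5%. For Tmem176b the shares were 3.14% of WT and 15.7% of Batf3-/- C6 cells, 10.4% and 4.95% of pDCs, and 12.4% and 21.2% of C13 cells. Median depths before thinning were 19599 and 18019 UMIs in C6, 8466 and 8982 in C14, and 4830 and 6293 in C13. The WT C6 shares were below those of pDCs, with overlapping intervals for Ms4a4c (1.25% to 3.39% in C6 and 2.27% to 9.98% in pDCs), so no expression is read from these WT shares alone. The Batf3-/- C6 shares lay above those of pDCs in the same library and below those of C13, with intervals that overlapped C13 for Ms4a4c and Tmem176b. A background share was not measured directly.

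**Figure D2:**
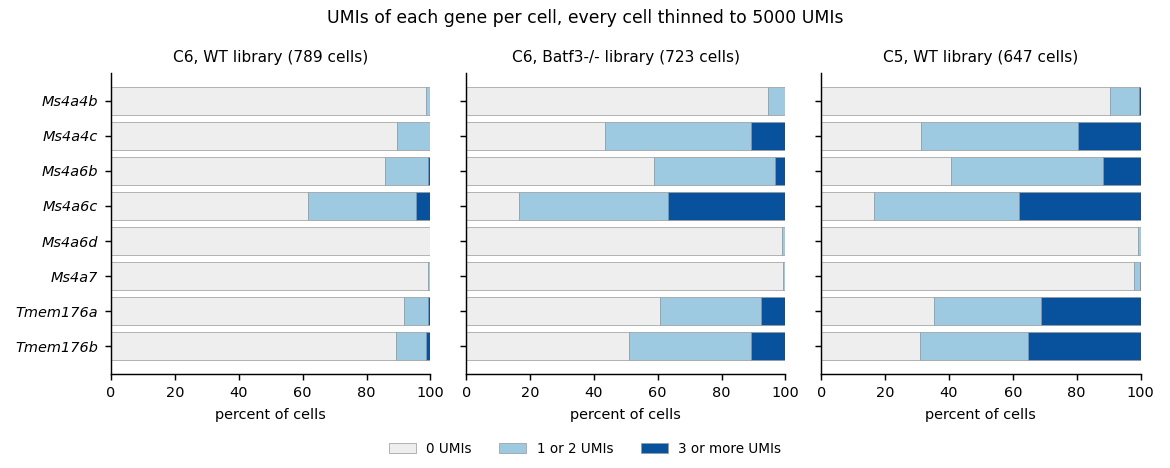
Percent of cells with 0, 1 or 2, and 3 or more UMIs of each gene in WT C6, Batf3-/- C6 and WT C5, after thinning every cell to 5000 UMIs. Cells with 3 or more UMIs of Ms4a6c made up 4.56% of WT C6, 36.8% of Batf3-/- C6 and 38.0% of WT C5.

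In WT C6 the Tmem176 transcripts were concentrated in few cells. The 20 cells with the most UMIs held 44.9% of the Tmem176a UMIs in the WT library and 18.6% in the Batf3-/- library. For Ms4a6c those shares were 13.4% and 8.41%. Such shares rise as the total falls, and Tmem176a had 448 UMIs in WT and 1910 in Batf3-/- C6. At totals in WT like that of Tmem176a, they were 28.4% for Ms4a4c (387 UMIs) and 18.4% for Ms4a6b (526 UMIs). For Tmem176b (533 UMIs) the WT share was 40.7%. Without the 5% of cells of each library with the highest Scrublet doublet score, which left 729 WT and 704 Batf3-/- C6 cells, Tmem176b was at 18.5 CPM in WT and 178 CPM in Batf3-/- cells, a log2 ratio of 3.27, while that of Ms4a6c was 1.98. Whether doublets make part of the WT signal was not tested further. Tmem176a and Tmem176b were found in the same cells more often than their separate shares give: 27.9% of Batf3-/- C6 cells had both at 5000 UMIs, against a product of 19.4%. For Ms4a6b and Ms4a6c the share with both (34.6%) and the product (34.4%) were alike.

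Genes of the cDC1 and cDC2 programmes differed between the libraries in the same C6 cells. All 6 cDC1-associated genes that the study names for C6 (Naaa, Xcr1, Cadm1, Cd8a, Tlr3 and Tlr11) were at least 2-fold lower in Batf3-/- C6, against 2.14% of all genes, with Xcr1, the chemokine receptor that marks cDC1, at 397 and 45.7 CPM. Of the cDC2-associated genes it names for C6, which include the Tmem176 pair, the 5 that are no members (Ltb, Cybb, S100a4, Ccr2 and Cd209a) were taken as a list, and 4 were at least 2-fold higher, among them Cd209a, a C-type lectin of cDC2, at 14.9 and 139 CPM, while Ccr2 had a log2 ratio of 0.96. The study chose both lists on these cells, so they are not independent evidence of a direction. The 7 cDC1 markers summed to 4144 CPM in WT and 1407 CPM in Batf3-/- C6, and the 7 cDC2 markers to 36.3 and 202 CPM, with no marker at 0 in either library. In WT C5 those sums were 382 and 375 CPM, so that Batf3-/- C6 lay between WT C6 and C5 on both sums. The cDC2 sum rested largely on Cd209a. This gene, and Xcr1, Cadm1, Naaa and Tlr3 among the cDC1 markers, are also on the lists that the study chose on these cells. The marker sums are therefore not independent of those lists. Itgam (2.69 and 24.6 CPM), Sirpa (10.7 and 24.2 CPM) and Cd4 (3.64 and 8.69 CPM) were also higher with ratio intervals above 0, while Clec10a (2.37 and 2.67 CPM), Clec4a4 (1.34 and 1.63 CPM) and Mgl2 (0.639 and 0.520 CPM) had overlapping intervals. The sums of the other marker lists in C6 were 331 and 436 CPM for monocytes, 15.6 and 23.7 CPM for macrophages, and 746 and 718 CPM for cycling genes. The part of these differences in the levels of the Ms4a and Tmem176 genes was not tested.

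Within C6, cells with more cDC2-associated transcripts also held more Ms4a4c, Ms4a6c, Tmem176a and Tmem176b, in both libraries. In the Batf3-/- library Ms4a6b averaged 0.484, 0.464 and 0.707 UMIs per cell at 0, 1 or 2, and 3 or more such UMIs, and Ms4a4b 0.016, 0.099 and 0.060, so neither was higher at every step. Among cells with no UMI of the 5 cDC2-associated genes, Ms4a4c averaged 0.042 UMIs per cell (0.025 to 0.066) in 432 WT cells and 0.562 (0.394 to 0.779) in 64 Batf3-/- cells. Among cells with 3 or more such UMIs, it averaged 0.346 (0.252 to 0.463) in 130 WT cells and 0.976 (0.889 to 1.07) in 467 Batf3-/- cells. Tmem176b averaged 0.058 and 0.453 UMIs in the former cells and 0.692 and 1.11 in the latter. At each of the 3 levels of cDC2-associated UMIs the interval of the Batf3-/- library lay above that of WT for Ms4a4c, Ms4a6c, Tmem176a and Tmem176b. The top level has no upper bound, so within it the libraries are not matched for these UMIs. Cells with the highest Scrublet scores (68 WT and 23 Batf3-/- cells of C6) were kept in this split. Split by the UMIs of the 6 cDC1-associated genes instead, the libraries were not apart at every level. Among cells with none, Ms4a6c averaged 3.2 UMIs (2.19 to 4.52) in 10 WT cells and 2.31 (2.12 to 2.52) in 232 Batf3-/- cells, and Tmem176b 1.10 (0.549 to 1.97) and 1.18 (1.05 to 1.33). Among cells with 1 or 2 (31 WT and 319 Batf3-/- cells), Ms4a6c averaged 1.84 and 2.22 UMIs, Tmem176a 0.452 and 0.633, and Tmem176b 0.774 and 0.818, with overlapping intervals, while Ms4a4c averaged 0.290 (0.133 to 0.551) and 0.862 (0.763 to 0.970). Among cells with 3 or more (748 and 172 cells), Tmem176b averaged 0.146 (0.120 to 0.176) and 0.738 (0.616 to 0.879), and the intervals of all 4 genes were apart. This level too has no upper bound, so within it the libraries are not matched for the cDC1-associated UMIs. The cells of a library are not replicates, so these intervals too cover counting error only.

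**Figure D3:**
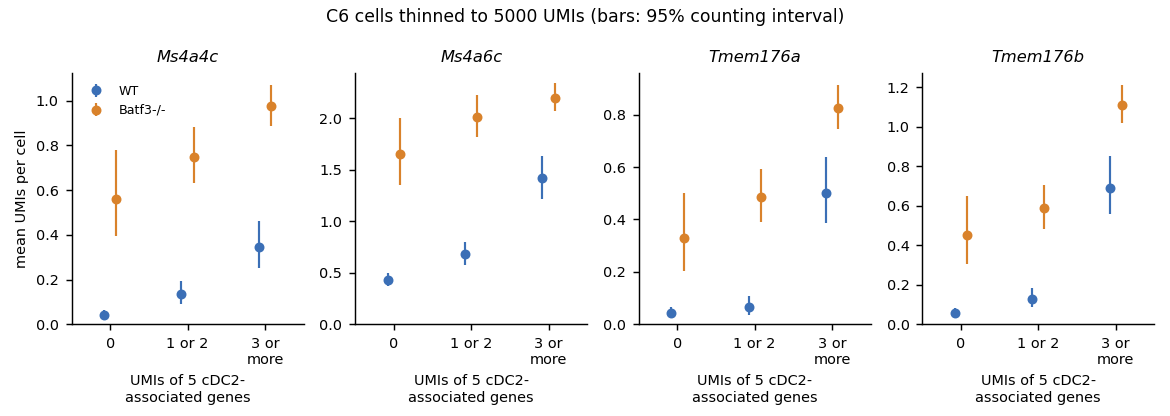
Mean UMIs per C6 cell of Ms4a4c, Ms4a6c, Tmem176a and Tmem176b (5000 UMIs per cell) in cells with 0, 1 or 2, and 3 or more UMIs of Ltb, Cybb, S100a4, Ccr2 and Cd209a, with 95% counting intervals as bars. Both libraries increase from left to right, and the Batf3-/- points sit above the WT points in each panel, for Tmem176b at 0.453 against 0.058 on the left and at 1.11 against 0.692 on the right.

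By the deposited cell cycle phase, the C6 ratios of Ms4a4c, Ms4a6b and the Tmem176 pair were higher among S phase cells (474 WT and 354 Batf3-/- cells) than among G2M cells (310 and 184), with no test of that difference. The log2 ratio of Ms4a4c was 3.15 (2.93 to 3.38) in S and 2.44 (2.20 to 2.68) in G2M, and that of Tmem176b 2.53 (2.35 to 2.71) and 1.85 (1.60 to 2.10). Ms4a6b had 1.97 (1.77 to 2.17) in S and 1.29 (1.05 to 1.54) in G2M, and Ms4a6c 1.86 (1.76 to 1.97) in S and 1.95 (1.83 to 2.07) in G2M, of which only those of Ms4a6c overlap. Only 13 WT cells of C6 were in G1, against 189 Batf3-/- cells. There Ms4a4c was at 49.8 CPM (10 UMIs) and 204 CPM, Tmem176b at 139 CPM (28 UMIs) and 272 CPM with a log2 ratio of 0.96 (0.42 to 1.56), and 2 of the 5 members compared were at least 2-fold higher, as were 8.17% of all genes in G1.

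The immature cDC1 of C4 showed the same members on the higher side, on the 31 Batf3-/- cells that fell in that cluster against 2202 WT cells. Ms4a4c was at 18.8 CPM in WT and 95.6 CPM (45 UMIs) in Batf3-/- cells, a log2 ratio of 2.35 (1.88 to 2.78). Tmem176a was at 47.4 and 187 CPM, Tmem176b at 56.9 and 240.1 CPM, and Ms4a6c at 72.3 and 202 CPM, and each was at least 2-fold higher. Ms4a6b was at 31.7 and 48.9 CPM with an interval that reached -0.04. Thus 4 of the 5 members compared in C4 were at least 2-fold higher, where 4.97% of all genes were. The study names the Tmem176 pair among the genes higher in Batf3-/- C4 too, so nothing is read from that count. The cDC2 markers summed to 46.5 and 208 CPM and the cDC1 markers to 4781 and 2516 CPM in these cells. The macrophage markers summed to 44.9 and 134 CPM, with C1qa, C1qb and C1qc, genes of the complement component C1q, each at least 2-fold higher (C1qa at 6.85 and 40.4 CPM, on 19 Batf3-/- UMIs). The part of these markers was not tested. Without the 5% of cells of each library with the highest Scrublet scores, 1952 WT and 30 Batf3-/- cells of C4 were left. The log2 ratio was then 2.57 for Tmem176a in place of 1.98 and 3.17 for Tmem176b in place of 2.08. That of Ms4a4c was 3.31 in place of 2.35. Among C4 cells in G1 (2026 WT and 26 Batf3-/- cells) it was 1.48 for Tmem176a, 2.10 for Tmem176b and 2.55 for Ms4a4c. Of the Batf3-/- Tmem176a UMIs in C4, 46 came from these 26 cells and 42 from 4 S phase cells.

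Mature cDC1 (C12, 394 WT and 31 Batf3-/- cells) had the Tmem176 pair at a high level in both libraries and little of the Ms4a members. Tmem176a was at 832 and 1265 CPM, a log2 ratio of 0.60 (0.44 to 0.77), and Tmem176b at 615 and 832 CPM, a log2 ratio of 0.44 (0.23 to 0.63). Ms4a4c was at 35.4 and 36.2 CPM and Ms4a6c at 69.4 and 50.6 CPM, with intervals that overlapped. Of the 6 members compared, Ms4a7 alone was over 2-fold, on 18 and 4 UMIs with an interval of -0.77 to 2.86, where 6.26% of all genes were, and it reached the minimum only through the Batf3-/- library. Within WT, Tmem176b was 18.0 times as high in C12 as in C6, while Ms4a6c was 0.571 times as high. Between the libraries, the C12 cDC1 markers summed to 759 and 781 CPM and the cDC2 markers to 92.0 and 90.4 CPM. The B markers summed to 55.3 and 192 CPM, and the pDC markers to 125 and 188 CPM. The macrophage markers summed to 181 and 116 CPM and the monocyte markers to 63.4 and 25.3 CPM. The B list includes Ms4a1, an Ms4a gene that is no member. With both libraries summed, C12 was its highest cluster, at 60.7 CPM (197 UMIs), so the B sum there is largely Ms4a1. The part of these markers was not tested.

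**Figure D4:**
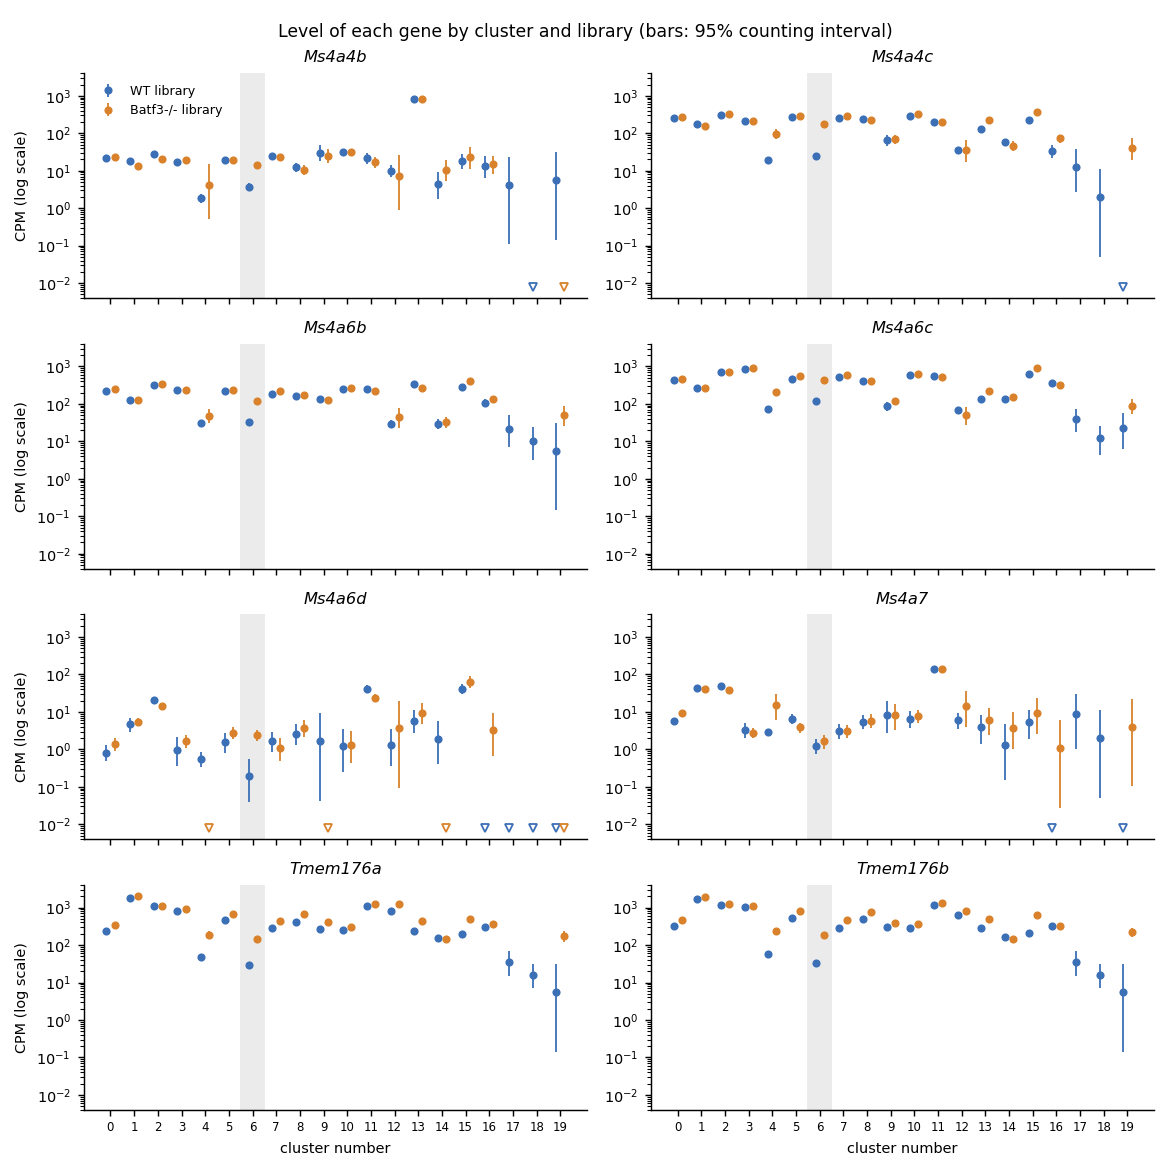
CPM of each gene in each cluster with at least 20 cells, on a log scale, for the WT and Batf3-/- libraries, with 95% counting intervals as bars, open triangles at the foot for clusters with 0 UMIs and C6 shaded. Ms4a4b stands out in C13 (834 and 837 CPM), Ms4a7 in C11 (138 and 138 CPM) and the Tmem176 pair in C1, and in C6 the WT points of the pair lie below all other clusters up to C16.

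Across the clusters each gene had its own pattern in WT, and the order below is a description. Tmem176a was highest in the mature cDC2 of C1 (1826 CPM), followed by C2 (1087 CPM) and C11 (1073 CPM), which did not differ beyond their intervals, and then by C12 (832 CPM) and C3 (824 CPM), which did not either. Tmem176b followed the same order at the top, with 1690.4 CPM in C1, 1192 CPM in C2 and 1155 CPM in C11, whose intervals overlapped, but C3 (1053 CPM) stood above C12 (615 CPM). Tmem176b made up 42.5% (41.0 to 44.0) of the UMIs of the pair in WT C12, 48.1% in C1 and 57.8% (56.9 to 58.7) in C0. In the Batf3-/- library those shares were 39.7%, 47.9% and 57.2%, so the balance of the pair went with the cluster in both libraries.

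Ms4a6c was highest in the Sox4+ cells of C3 (862 CPM) and in C2 (714 CPM), Ms4a4c in C2 (314 CPM) and C10 (286 CPM), and Ms4a6b in C13 (339 CPM) and C2 (328 CPM), and for Ms4a4c and Ms4a6b the intervals of these clusters overlapped. The other members were narrower. Ms4a4b was at 834 CPM in C13 and at no more than 30.9 CPM elsewhere in WT. Ms4a7 was at 138 CPM in C11, 49.6 CPM in C2 and 44.1 CPM in C1, and Ms4a6d at 41.9 CPM in C15, 40.8 CPM in C11 and 20.5 CPM in C2. Of the 19 pairs of neighbouring clusters in the WT order, 10 overlapped for Ms4a6c and 12 for Tmem176b.

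Over 9 Sirpa+ clusters pooled (C0, C1, C2, C3, C5, C7, C8, C10 and C11, 7664 WT and 10396 Batf3-/- cells), without C9, the mixed Sirpa+ cluster rich in mitochondrial transcripts, Ms4a4c was at 253 and 256 CPM, Ms4a6b at 223 and 234 CPM and Ms4a6c at 520 and 569 CPM. Tmem176a was at 591 and 881 CPM, a log2 ratio of 0.58 (0.56 to 0.59), and Tmem176b at 663 and 959.9 CPM, a log2 ratio of 0.53 (0.52 to 0.55). No member of the 7 compared was 2-fold higher there, as 0.135% of all genes were. The libraries differed in their mix of clusters, with 721 WT and 1845 Batf3-/- cells in C1, where the pair was highest. With each cluster weighing the same, the log2 ratio was 0.27 for Tmem176a and 0.26 for Tmem176b.

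By cluster, the ratio of the pair lay above the 95th percentile of all genes in 4 of the 5 cDC2a clusters. In C0 Tmem176a was at 229.7 and 347 CPM, a log2 ratio of 0.59 (0.54 to 0.65), and only 0.606% of the genes compared in C0 had a higher one. The log2 ratios of Tmem176a and Tmem176b were 0.61 and 0.66 in C5, 0.64 and 0.67 in C7, and 0.76 and 0.63 in C8. In C10, also cDC2a, they were 0.30 and 0.34, under the 95th percentile of 0.40. In C1, C2, C3 and C11 they ran from 0.01 to 0.20, within the range of the middle 90% of all genes in those clusters. Those of Ms4a4c, Ms4a6b and Ms4a6c in C0, C5, C7 and C8 ran from -0.04 to 0.27. In the immature cDC2b of C2, 3 members were lower and under the 5th percentile of -0.33. Ms4a7 was at 49.6 and 38.0 CPM (log2 ratio -0.38, -0.57 to -0.20), Ms4a6d at 20.5 and 14.2 CPM (-0.54, -0.83 to -0.24) and Ms4a4b at 27.4 and 21.1 CPM (-0.38, -0.63 to -0.13). Ms4a4b was also lower in C1, at 18.1 and 13.2 CPM (log2 ratio -0.46, -0.83 to -0.07). In mature cDC2b (C11) Ms4a6d was at 40.8 and 23.5 CPM, and Ms4a7 at 138 CPM in each library. The neutrophil markers summed to 86.6 and 10.2 CPM and the monocyte markers to 3628 and 3158 CPM in C2. In C11 the neutrophil markers summed to 115 and 16.0 CPM, the macrophage markers to 2904 and 2296 CPM and the monocyte markers to 6489 and 5744 CPM. The cDC1 markers summed to less in the Batf3-/- cells both where the pair lay above the percentile (392 and 286 CPM in C0, 382 and 283 in C5, 348 and 263 in C7, 373 and 307 in C8) and where it did not (369 and 295 CPM in C2, 334 and 283 in C3, 351 and 295 in C10, 616 and 395 in C11), except in C1, at 262 and 272 CPM. The monocyte markers summed to 307 and 189 CPM and the pDC markers to 201 and 99.7 CPM in C7, and the monocyte markers to 240.1 and 332 CPM in C8. The part of these markers was not tested. The sums of the cDC2 markers in C0 were 502 and 512 CPM, of the monocyte markers 48.8 and 64.6 CPM and of the macrophage markers 99.8 and 122 CPM.

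**Figure D5:**
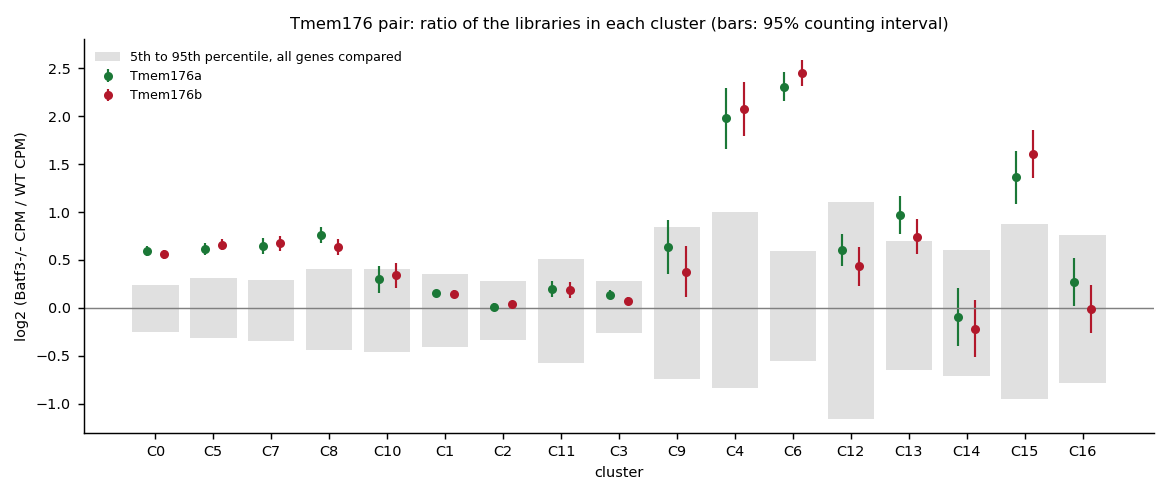
Log2 ratio of Batf3-/- over WT CPM of Tmem176a and Tmem176b in each cluster with at least 50 cells in both libraries, and in C4 and C12 (31 Batf3-/- cells each), with 95% counting intervals as lines and grey bars for the 5th to 95th percentile of all genes compared. The pair lies above the bars in C0, C5, C7, C8, C4, C6, C13 and C15, and at or within them elsewhere.

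Outside the conventional dendritic cells the pair was also higher in monocytes and in C13, and not in pDCs. In C15 (145 WT and 52 Batf3-/- cells) Tmem176a was at 195 and 502 CPM, a log2 ratio of 1.36 (1.09 to 1.64), and Tmem176b at 212 and 644 CPM, a log2 ratio of 1.60 (1.35 to 1.86). These were the 2 of 7 members compared that passed 2-fold in C15, where 3.47% of all genes did. The cells of C15 also differed in makeup, with neutrophil markers summing to 9335 and 19975 CPM, monocyte markers to 13488 and 19985 CPM and cDC1 markers to 1565 and 431 CPM, whose part was not tested. In C13 the log2 ratio was 0.96 (0.77 to 1.16) for Tmem176a and 0.74 (0.56 to 0.93) for Tmem176b, that of Ms4a4c 0.86 (0.59 to 1.13) at 128 and 232 CPM, and that of Ms4a6c 0.77 (0.50 to 1.04) at 132 and 226 CPM, all above the 95th percentile of 0.70, while Ms4a4b was at 834 and 837 CPM. Ms4a6b was lower there, at 339 and 266 CPM, a log2 ratio of -0.35 (-0.56 to -0.14). In C13 the cDC2 markers summed to 196 and 347 CPM and the cDC1 markers to 587 and 244 CPM, whose part was not tested. In pDCs Tmem176a was at 151 and 142 CPM and Tmem176b at 167 and 144 CPM, with overlapping intervals.

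The values of C16 and C19 rest on few cells. In C19, the stem cells (29 WT and 36 Batf3-/- cells), Tmem176a had 1 and 42 UMIs, a log2 ratio of 4.92 (2.36 to 10.26), and Tmem176b 1 and 54 UMIs. In C19 the macrophage markers summed to 17.0 and 167 CPM, the monocyte markers to 33.9 and 208 CPM and the cycling markers to 2199.7 and 1016 CPM, whose part was not tested. These and Ms4a6c (4 and 21 UMIs) were the members compared there, and 7.87% of all genes were at least 2-fold higher. They reached the minimum through the Batf3-/- library, so no count of them is read. In C16, 1 of 6 members passed 2-fold, Ms4a4c at 33.8 and 72.9 CPM, against 2.25% of all genes. The C16 cycling markers summed to 39.2 and 98.7 CPM, the macrophage markers to 37.9 and 69.7 CPM and the pDC markers to 565 and 749 CPM. The cDC1 markers there summed to 945 and 689 CPM and the cDC2 markers to 544 and 592 CPM, and the part of these markers was not tested. Over all cells the pair was at 352 and 769.9 CPM (Tmem176a) and 389 and 841 CPM (Tmem176b), the 2 of 7 members that passed 2-fold where 0.459% of all genes did, but with each of the 18 clusters weighing the same the log2 ratios of 1.13 and 1.11 became 0.42 and 0.40.

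The genes with profiles most like those of the members were named by Pearson's r of log2(CPM + 1) over the 34 cluster and library profiles of at least 50 cells, among 10353 genes with at least 500 UMIs, of which members were not ranked. The profiles share libraries and depth, and the r values are a description. Tmem176a and Tmem176b had r = 0.994 with each other, and outside the members were most like Reep3 (0.900 and 0.917), Mcemp1 and Lpp. Ms4a6c was most like Casp1, the protease of the inflammasome (r = 0.941), S100a4 and S100a6, and Ms4a4c was most like Casp1 (0.914), Sh2d1b1 and Msn. Between members, r was 0.912 for Ms4a4c and Ms4a6b, 0.909 for Ms4a4c and Ms4a6c and 0.770 for Ms4a4c and Tmem176b. Ms4a6b was most like Emb, Stk40 and Oas1a, Ms4a7 like Mmp14, Il1rn and Adam17, and Ms4a4b like Gm8369, Ctla2a and Klrb1f. For Ms4a6d, with 956 UMIs in all, no such genes were sought. Gm8369 lies among the Ms4a members on chromosome 19 and shares 50-base stretches with Ms4a4b, so reads of the pair may be mixed. By Spearman's rho in place of Pearson's r, 6 of the 7 members ranked kept 0 or 1 of their 3 genes, and Casp1 was not among the 3 of Ms4a4c or Ms4a6c.

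Genes beside the loci were compared in the same C6 cells. Of the 11 genes with at least 20 UMIs inside or nearest the Ms4a locus, 8 passed the minimum and none was 2-fold higher or lower. In C6 1.97% of all genes were 2-fold higher and 2.14% lower, so nothing is read from that count. Among the 8 was Ms4a1, at 19.1 and 13.1 CPM (log2 ratio -0.55). Another was Mpeg1, which encodes perforin-2 and lies 856 kb away, at 495 and 258 CPM (log2 ratio -0.94). The 2 highest ratios, 1.65 for Gm8369 and 1.61 for Ptgdr2, were of genes under 10 CPM. At the Tmem176 locus 2 of 10 neighbours passed the minimum. They were Malsu1 (227 kb away) at 42.5 and 37.1 CPM and Tra2a (397 kb away) at 182 and 192 CPM. Of the 8 further Ms4a genes in the tables, only Ms4a1 reached the minimum in C6, 5 had no UMI there, Ms4a10 had 20 and 27 UMIs and Ms4a4a 1 and 2. Ms4a1 in C4 was at 27.8 and 74.4 CPM (35 UMIs in Batf3-/-).

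Among 8 inflammasome genes, 7 passed the minimum in C6, with a median log2 ratio of 0.28 beside 0.01 for all genes. Casp1 was the 1 gene at least 2-fold higher, at 23.0 and 63.4 CPM (log2 ratio 1.46, 1.28 to 1.64). Pycard, the adaptor of the inflammasome, was at 194 and 298 CPM, Nlrp3, its sensor, at 11.9 and 14.6 CPM, Il1b at 79.9 and 94.0 CPM and Il18 at 28.9 and 18.6 CPM. Nlrc4, under the minimum, had 39 and 113 UMIs. Over all cells none of the 8 passed 2-fold, with Casp1 at 43.9 and 68.0 CPM. Of the transcription factor genes linked to Tmem176 expression or cDC2 subsets, Rora had 12 and 10 UMIs in C6, and Tbx21, which encodes T-bet, 19 UMIs in WT and 54 in Batf3-/- cells.

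The near copies among the Ms4a genes limit how well their reads can be told apart. Of the 111-base stretches (the length of the sequenced read) in the last 600 bases of the annotated transcripts, 0.816% of those of Ms4a4c also occur in Ms4a4b and none of those of Ms4a6b, Ms4a6c, Ms4a6d, Ms4a7 or the Tmem176 pair occur in another gene. For stretches of 50 bases the part shared with another of the 8 genes was 9.42% for Ms4a4c, 2.85% for Ms4a4b, 5.47% for Ms4a6b and 4.99% for Ms4a6c, and with any gene 12.7% for Ms4a6c, several of them no Ms4a genes. How a read that fits 2 genes was counted is not given in the sources used here beyond the tool's name and version. The split of Ms4a4b against Ms4a4c and of Ms4a6b against Ms4a6c is therefore uncertain.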

How the data were processed

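Counts were UMIs per gene and cell, which the authors made with bcl2fastq 2.2.0 and Cell Ranger on GRCm38 (mm10), evened in depth between libraries, filtered in Seurat 3.0.5 and deposited as whole numbers. Cluster numbers, phases and SingleR labels were used as the authors deposited them. The antibody tables, whose tags carry no names, and the log-normalized tables were not used. WT cells held 122530055 UMIs and Batf3-/- cells 114517073.

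UMIs were summed per library and cluster (Python 3.11.15, numpy 2.4.6, scipy 1.17.1, pandas 2.3.3). A gene was compared in a cluster holding 20 or more cells of each library where its CPM averaged 10 or more and its UMIs came to 20 or more, and 2-fold was the size rule. Shares of cells used cells thinned to 1000 or 5000 UMIs (seed 1). The ratio interval was tested on simulated counts, and the thinning on the WT C6 counts against the shares it should give. Doublets were kept: Scrublet (scanpy 1.11.5, expected rate 0.10) called 438 WT cells and 1 Batf3-/- cell, so it did not work for the latter library. Named genes were the members, Batf3, all other Ms4a genes, the 5 nearest genes on each side of a locus, the 3 genes most like each member with at least 1000 UMIs, and fixed lists. 1 gene of the transcription factor list is not reported here. The B cell list lacked Ighm and the lymphoid list Trbc2. In C6 pDC markers summed to 170 CPM in WT and 176 CPM in Batf3-/-, NK, ILC and T markers to 104 and 124, B markers to 26.5 and 27.0, and neutrophil markers to 0.959 and 1.41. The members and lists were chosen with earlier results of these data known. Alternatives covered the denominator, cell weights, doublets, depth, phase, label, shared barcodes, minimum CPM, fold, thinning and likeness measure.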

Additional observations from a re-analysis of the deposited data

How the results depend on the processing

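No paired analysis was possible because each genotype is 1 library, and for the same reason the spread between mice is unknown and no replicate could be left out. The number of members at least 2-fold higher in Batf3-/- C6 stayed within 1.5 times of the 5 reported under 11 of 12 alternatives, and was 2 among G1 cells, of which WT C6 held 13 and where 8.17% of all genes passed. At 2-fold, 1.84% to 2.71% of all genes passed under the other choices of cells and denominator, with 5.02% at a fold of 1.5 and 0.724% at a fold of 3. The median log2 ratio of the members in C6, reported as 2.31, was 2.32 in cells labelled DC, 2.31 without shared barcodes and 2.16 without mitochondrial and ribosomal protein genes. It was 2.47 as the mean of single cells, 3.17 without called doublets (of C6, 57 WT cells and no Batf3-/- cell), 2.84 without the 5% of cells of each library with the most UMIs, which left 504 WT and 432 Batf3-/- cells of C6, 0.98 in G1, 2.53 in S and 1.85 in G2M cells. Without the 5% of cells with the highest Scrublet scores, an alternative chosen after seeing the data like those of the shared barcodes and of equal cluster weights, it was 3.27. The number of members passing the minimum was 6 in place of 5 without mitochondrial and ribosomal protein genes and in G2M cells. Those medians are therefore not over the same members as the reported median. The cause of the other differences was not tested. The share of all genes past 2-fold higher in C6, reported as 1.97%, was 3.93% with no minimum CPM. Of the lists of genes most like a member, 13 of 21 kept 2 or 3 of their 3 genes under another measure and 8 kept 0 or 1, 6 of these under Spearman's rho. Depth limits Ms4a6d and Ms4a7 most, with 35 and 41 UMIs in C6.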
